A study of Homo sapiens with 6 samples.

Results

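The miR-103 and miR-107 microRNAs (miRNAs) are made from hairpins that lie in introns of the PANK genes. The 3 hairpins described here, hsa-mir-103a-1, hsa-mir-103a-2 and hsa-mir-107 (mir-103a-1, mir-103a-2 and mir-107 below), were taken by name from a table of 147 hairpins. They give rise to 2 of the 127 miRNAs in that table, since both mir-103a copies carry miR-103a-3p. Small RNAs had been sequenced from HCT116 DICER-KO cells, a human colorectal carcinoma line whose own DICER was knocked out. In both groups the cells had received a rescue plasmid 48 h before RNA was taken. The DICER-WT rescue (pXG-DICER-WT plasmid) had 3 samples, and so had the DICER-delHelicase rescue (pXG-DICER-delHelicase plasmid), in which DICER lacks its helicase domain. The knockout and the transfection were thus shared by both groups, and knockout cells with no rescue plasmid were not analysed here. The labels do not say whether replicate samples were separate cultures or whether the knockout line is a single clone.

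DICER is the RNase III enzyme that cuts off the apical loop of a precursor miRNA. The 5′ end of a miRNA from the 3′ arm (3p) is made by this cut, and the bases just behind that end, the seed, are the part of a miRNA that pairs with its targets. The helicase domain of DICER lies close to the loop of the bound precursor. In miR-103 and miR-107 the 3p strand is the main product, so the DICER cut sets the seed itself. The host genes encode pantothenate kinases, which catalyse the first step of coenzyme A synthesis. The miRNAs are known for effects on insulin sensitivity and for targeting the mRNA of DICER.

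The mature miRNAs are shown first because their near identity frames every comparison below. The capitals mark the seed, bases 2 to 8, and the sequences are those of RefSeq (GRCh38.p14).
miR-103a-3p: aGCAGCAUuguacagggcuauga
miR-107: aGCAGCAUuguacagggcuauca
The seed was the same in both. The only difference was the substitution G22C, with positions counted from 1 at the 5′ end and miR-103a-3p given first, so the first 21 of 23 bases were identical. RefSeq sequences were matched for 116 of the 127 miRNAs in the table, and of these only miR-103a-3p and miR-107 had this seed.

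The deposited hairpins show where the product sits in its precursor, with the 3p miRNA in capitals.
mir-103a-1: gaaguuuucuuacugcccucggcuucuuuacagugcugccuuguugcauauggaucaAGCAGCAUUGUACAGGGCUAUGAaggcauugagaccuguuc
mir-103a-2: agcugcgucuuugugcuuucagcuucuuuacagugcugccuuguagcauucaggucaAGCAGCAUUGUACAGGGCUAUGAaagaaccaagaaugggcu
mir-107: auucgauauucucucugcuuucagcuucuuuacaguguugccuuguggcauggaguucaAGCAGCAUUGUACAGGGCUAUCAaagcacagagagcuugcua
The deposited sequences were 98 bases long for both mir-103a copies and 101 for mir-107. Each held the RefSeq hairpin plus 10 bases on either side.

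The annotation placed each hairpin in an intron on the strand of a PANK gene, as the group's name says (hairpin coordinates from RefSeq, introns from GENCODE release 29, both GRCh38). Intron 5 of PANK3 on chromosome 5 holds mir-103a-1, at 168560896 to 168560973 on the minus strand. Intron 5 of PANK2 on chromosome 20 holds mir-103a-2, at 3917494 to 3917571 on the plus strand. Intron 5 of PANK1 on chromosome 10 (intron 4 in another of its transcripts) holds mir-107, at 89592747 to 89592827 on the minus strand. None overlapped an exon of its host in the basic transcript set. All sat near the upstream exon, at 419 bases in PANK3, 443 in PANK2 and 369 in PANK1, within introns of 2235, 1620 and 4419 bases. On the opposite strand of the mir-103a copies RefSeq lists MIR103B1 (chromosome 5, 168560904 to 168560965) and MIR103B2 (chromosome 20, 3917502 to 3917563). Neither antisense hairpin was among the 147.

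The table gave each hairpin a variation score per construct, headed global variation by the authors. Its formula and the handling of the 3 samples per group are not stated in the sources used, and the table holds no value per sample. No spread, interval or test could therefore be attached to a difference between the constructs. The depth behind the scores is unknown. The table gives no abundance, so the identity of the cells could not be checked against marker miRNAs. The 147 scores ranged from 0 to 0.964 with DICER-WT (median 0.0804) and from 0 to 1.09 with DICER-delHelicase (median 0.146).

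The mir-103a copies had low scores with DICER-WT and scores above the table's median with DICER-delHelicase, whereas mir-107 was low with both. For hsa-mir-103a-1 the DICER-WT score was 0.0304 and the DICER-delHelicase score 0.206. For hsa-mir-103a-2 they were 0.0304 and 0.207. The change was 0.176 for either copy, a ratio of 6.78 for mir-103a-1 and 6.80 for mir-103a-2. For hsa-mir-107 they were 0.0116 and 0.0211, a change of 0.00943 and a ratio of 1.81.

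**Figure D1:**
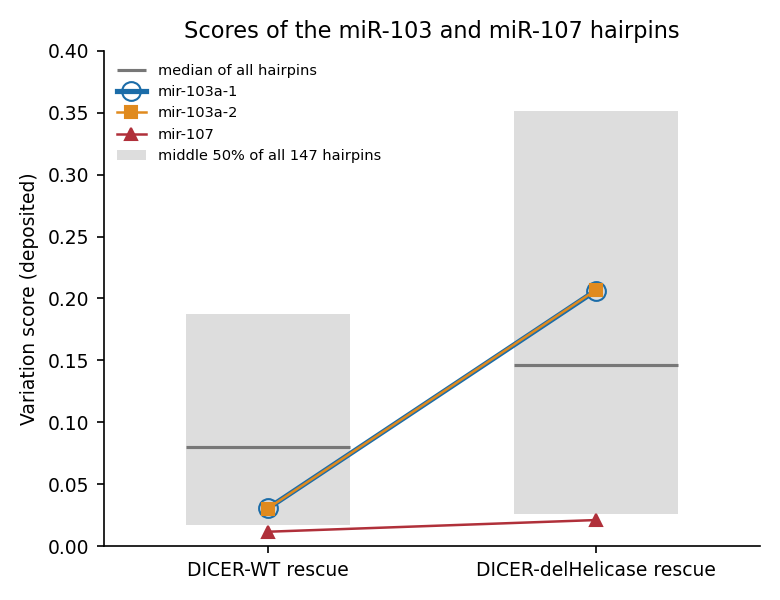
Variation score (y axis, deposited units) of mir-103a-1, mir-103a-2 and mir-107 under the DICER-WT and DICER-delHelicase rescues, 1 value per construct with no replicate error; grey bars span the quartiles of all 147 hairpins and grey lines mark their medians. The lines of both mir-103a copies coincide and end at 0.206 and 0.207, above the median of 0.146, while mir-107 ends at 0.0211.

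All 3 hairpins scored higher with DICER-delHelicase, as did 72.1% of the whole table. An increase of at least 0.1 was found in both mir-103a copies and not in mir-107, and in 37.4% of all hairpins. The limit of 0.05 separated the 3 hairpins in the same way, and 46.3% of the table passed it. The ratio was at least 2 in both mir-103a copies, and in 46.8% of the 141 hairpins with a DICER-WT score above 0. The mir-103a copies stand for a single mature sequence, so these counts are those of 2 miRNAs.

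The place of each hairpin in the table shows how far its score moved. With DICER-WT, 30.8% of the 146 other hairpins scored lower than mir-103a-1 (exact Clopper-Pearson 95% interval 23.5 to 39.0), and 21.9% scored lower than mir-107 (15.5 to 29.5). With DICER-delHelicase the share below mir-103a-1 was 58.9% (50.5 to 67.0), while that below mir-107 was 22.6% (16.1 to 30.3). Counted from the highest score, mir-103a-1 stood at place 102 with DICER-WT and at place 61 with DICER-delHelicase, and mir-107 at places 115 and 114. The intervals treat each hairpin as a separate draw and say nothing about replicate error.

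The hairpins were also ranked by signed change, the DICER-delHelicase score minus the DICER-WT score. The 38 of 147 hairpins that fell thus rank as lower, however large the fall. The signed change was lower than that of mir-103a-1 in 78.8% of the other hairpins (71.2 to 85.1). It was lower than that of mir-103a-2 in 79.5% (72.0 to 85.7). For mir-107 the share was 43.2% (35.0 to 51.6). Against the 73 hairpins whose mean score lay above the median, a set that does not include mir-107, it was 27.4%. Ranked by ratio, mir-103a-2 was number 9 and mir-103a-1 number 10 from the top of the 141 hairpins, and mir-107 was number 77.

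**Figure D2:**
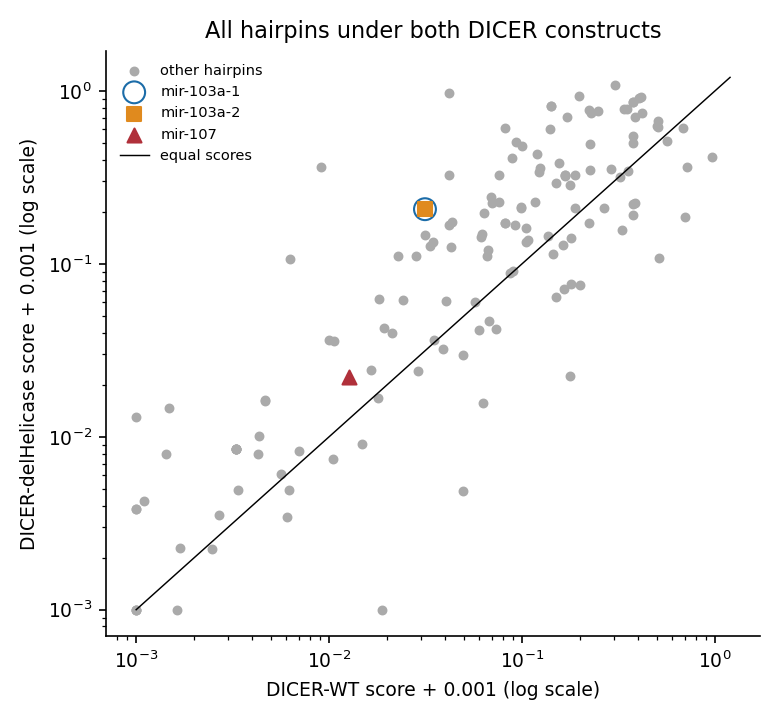
Variation score plus 0.001 of each of the 147 hairpins with DICER-WT (x axis, log scale) and with DICER-delHelicase (y axis, log scale); the line marks equal scores. The mir-103a copies overlie each other well above the line, at scores of 0.0304 and about 0.206, and mir-107 lies close to it.

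Most hairpins with DICER-WT scores like that of mir-103a changed less than it did. The 10 hairpins of other miRNAs nearest to mir-103a in DICER-WT score (0.0217 to 0.0395) had DICER-delHelicase scores of 0.0231 to 0.146, with a median of 0.0858. Of these 10 hairpins 8 scored higher with DICER-delHelicase and 2 lower, and none changed by as much as mir-103a. Among the 20 nearest, 2 changed by more, namely let-7e and mir-30b. For mir-107, 4 of its 10 nearest hairpins rose by more, and 6 rose by less or fell, with a median change of 0.00455. Of its 5 nearest 3 rose by more (median change 0.0254), and of its 20 nearest 9 did (median 0.00675). This comparison, and thus the naming of let-7e and mir-30b, was chosen after the values were seen.

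The hairpins most like mir-103a over both constructs came from other families. Likeness was measured as the distance between points on the log10(score + 0.001) scale. The nearest was mir-23b (0.0305 with DICER-WT and 0.146 with DICER-delHelicase, distance 0.149). The next were mir-320d-1 (0.0411 and 0.168, distance 0.156) and mir-320d-2 (0.0425 and 0.174, distance 0.160). By the same measure mir-107 lay 1.05 from mir-103a. Nearest to mir-107 were mir-3615 (0.0155 and 0.0233, distance 0.122), mir-454 (0.0169 and 0.0158, distance 0.192) and mir-200a (0.00966 and 0.0351, distance 0.226).

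Set against each other, mir-103a and mir-107 differed more without the helicase domain than with it. With DICER-WT the mean score of the mir-103a copies was 2.61 times that of mir-107, a gap of 0.0188. With DICER-delHelicase it was 9.80 times, a gap of 0.185. The ratio of the constructs was 3.75 times as high for mir-103a as for mir-107. None of these differences could be tested, since each rests on a single value per construct.

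The mir-103a copies differed from each other by far less. Their gap was 2.71e-05 under DICER-WT and 0.000371 under DICER-delHelicase, or 0.0891% and 0.179% of their mean score. The table holds 16 miRNAs with several hairpins. Their median gap was 0.000272 under DICER-WT and 0.00145 under DICER-delHelicase, and the largest was that of let-7a-3p (0.353 and 0.292). Both gaps were exactly 0 for 3 of the 16 miRNAs. The mir-103a copies carry the same mature miRNA on different chromosomes, and the sources used here do not say how reads that match both were assigned.

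**Figure D3:**
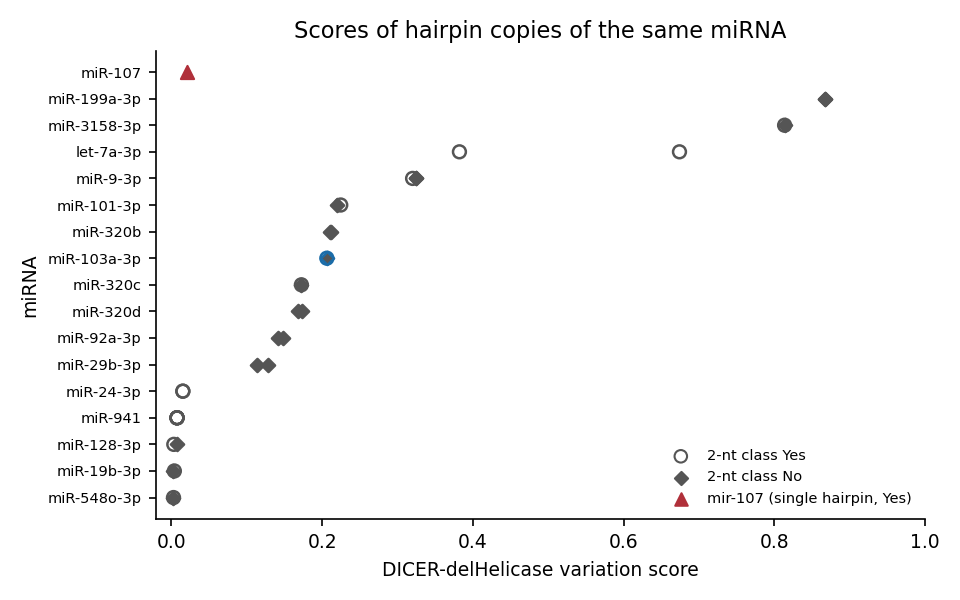
DICER-delHelicase variation score (x axis) of each hairpin copy of the 16 miRNAs with several hairpins (y axis, ordered by mean score), with open circles for 2-nt class Yes and filled diamonds for No, and mir-107 added as a triangle. The mir-103a symbols, of different classes, coincide near 0.206, and mir-107 lies at 0.0211.

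A further column of the table, headed 2-nt and derived from the DICER-WT products, split the mir-103a copies: mir-103a-1 was Yes, mir-103a-2 was No, and mir-107 was Yes. In all, 73 hairpins were Yes and 74 were No. The main DICER-WT 5′ end had offset 0 in all 3 hairpins. Copies fell into different classes in 8 of the 16 miRNAs with several hairpins, with gaps between copies of at most 0.00793 under DICER-WT and 0.00492 under DICER-delHelicase. As a share of the mean score these gaps reached 128% and 73.0% in miR-128-3p, whose scores lie near 0, and 46.8% in miR-19b-3p with DICER-delHelicase. How reads that match several copies were assigned is not stated, so gaps between copies cannot be set against the class. The class was the same in mir-103a-1 and mir-107, whose DICER-delHelicase scores were far apart.

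The sequences around the linker show part of the differences between the hairpins. The stretch from 37 bases before the 3p start to the 3p end is aligned below without gaps. Capitals mark the positions at which the 3 hairpins are not all alike.
mir-103a-1: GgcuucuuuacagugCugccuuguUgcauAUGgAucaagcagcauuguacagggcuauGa
mir-103a-2: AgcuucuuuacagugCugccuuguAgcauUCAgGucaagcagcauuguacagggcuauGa
mir-107: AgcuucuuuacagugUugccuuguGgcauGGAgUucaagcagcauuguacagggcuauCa
RefSeq lists a 5p product of 23 bases at the start of this stretch for each mir-103a copy, which leaves a linker of 14 bases before the 3p miRNA. It lists no 5p product for mir-107, whose linker was therefore set by alignment with mir-103a.

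Within this stretch, most differences fell in that linker. The deposited hairpins also differed outside it: aligned over their whole length, the mir-103a copies were identical at 75 of 101 columns. Counted from 1 at the start of the 60-base stretch, mir-103a-2 differed from mir-103a-1 by G1A, U25A, A30U, U31C, G32A and A34G, of which 5 lie in the linker. From mir-103a-2 to mir-107 the changes were C16U, A25G, U30G, C31G, G34U and G59C, with 4 in the linker. Thus the mir-103a copies were as far apart in this stretch (6 of 60 bases) as mir-103a-2 and mir-107, and mir-103a-1 and mir-107 differed at 8. The mir-103a copies were not the pair with the fewest linker differences. It is not stated how reads of miR-103a-3p, which match both copies, were assigned. The near-equal scores of the copies therefore cannot be set against these differences, and the part of the linker was not tested.

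The 3 bases just before the 3p start and the first 21 bases of the miRNA were the same in all 3 hairpins, a shared run of 24 bases. Between the mir-103a copies the shared run was 27 bases. A read inside such a run matches more than 1 hairpin. Reads of miR-107 that end before base 22 cannot be told from those of miR-103a by sequence. The part of shared reads in the scores was not tested.

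Beyond these 3 hairpins, whole-hairpin similarity in the table was low. In global alignments mir-103a-2 and mir-107 were 77.7% identical, mir-103a-1 and mir-107 74.8%, and the mir-103a copies 74.3%. The most similar hairpin of another miRNA was mir-101-1, 59.0% identical to mir-103a-1, with scores of 0.385 and 0.225. It was followed by mir-320d-2 (58.8%, scores given above) and mir-29b-2 (58.7%, scores 0.143 and 0.113). Of these, mir-101-1 and mir-29b-2 scored lower with DICER-delHelicase and mir-320d-2 scored higher.

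Other miRNAs that differ by a single base give a scale for the contrast between miR-103a and miR-107. Pairs were sought only among the 116 of 127 miRNAs with a matched RefSeq sequence, so further pairs in the table may be missing. Among the matched miRNAs, 4 pairs had sequences 1 edit apart. The higher DICER-WT score was 2.61 times the lower for miR-103a-3p and miR-107, 11.0 times for miR-19a-3p and miR-19b-3p, 5.68 times for miR-27a-3p and miR-27b-3p, and 4.58 times for miR-30a-3p and miR-30e-3p. With DICER-delHelicase these ratios were 9.80, 18.4, 2.53 and 1.47. As differences, the gap of miR-103a-3p and miR-107 came to 0.0188 under DICER-WT and 0.185 under DICER-delHelicase, against 0.0513 and 0.0559 for the miR-19 pair, 0.00785 and 0.00387 for the miR-27 pair, and 0.328 and 0.238 for the miR-30 pair. The place of miR-103a-3p and miR-107 among the 4 pairs with DICER-WT thus depended on the scale. In each of these 4 pairs the scores differed by at least 4.58-fold with 1 or both of the constructs. Pairs with an unmatched miRNA were not examined. This set was chosen after the values were seen, and copies of a miRNA were averaged.

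**Figure D4:**
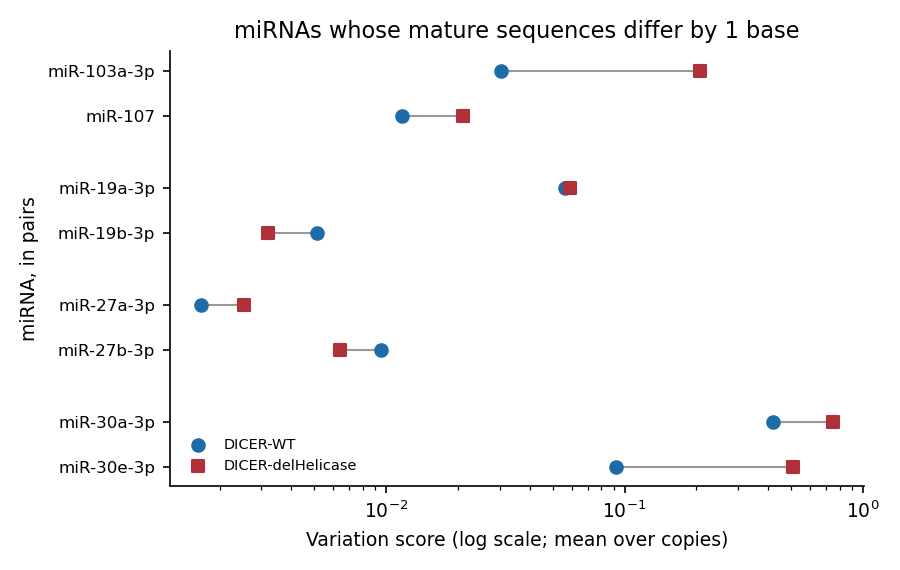
Variation score (x axis, log scale) with DICER-WT (circles) and DICER-delHelicase (squares), as the mean over copies of a miRNA. The y axis shows the 4 pairs found 1 base apart among miRNAs with a matched RefSeq sequence. The squares of miR-103a-3p (0.207) and miR-107 (0.0211) lie farther apart than their circles.

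Predicted structures were used to describe the bases around the 3p start. In the minimum free energy fold of each of the 3 hairpins, 2 stacked base pairs lay between the 3p start and the first unpaired base on either strand, on the side of the loop. Over the hairpins with a matched RefSeq sequence, this distance was 2 in 63 of 70 of class Yes and in 4 of 66 of class No, where mir-103a-2 was 1 of the 4. On the 3p strand alone, 2 paired bases lay before the start in mir-103a-1, 3 in mir-103a-2 and 5 in mir-107. The predicted terminal loop had 4 bases in mir-103a-1 and 5 in the others. Its median was 6 over the 132 hairpins with a matched RefSeq sequence and a loop length from the fold. When isolated base pairs were not allowed, the loop of mir-103a-1 had 12 bases, that of mir-103a-2 had 7, and the distance in mir-103a-2 was 0.

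The predicted pairing of the linker differed between the hairpins in both directions. Of its 14 bases, 6 were unpaired less often in mir-107 than in either mir-103a copy, 4 more often and 4 in between. Base 12 before the 3p start was unpaired in 10.8% of the predicted ensemble of mir-107, 99.9% of that of mir-103a-1 and 81.2% of that of mir-103a-2. At base 6 the order was the opposite, with 99.7%, 19.5% and 84.8%. Bases 4 and 5 were unpaired in 5.92% and 9.45% of the predicted ensemble of mir-107. In mir-103a-1 the values were 19.0% and 93.2%, and in mir-103a-2 they were 63.7% and 33.4%. Base 3 before the start was unpaired in 99.0% of the ensemble of mir-103a-1, 32.5% of that of mir-103a-2 and 41.2% of that of mir-107. Over the 14-base linker the mean was 61.8% for mir-103a-1, 63.5% for mir-103a-2 and 51.0% for mir-107. The first base of the miRNA was predicted unpaired in 16.9% of the ensemble of mir-103a-2, and in 2.56% and 2.40% of those of mir-103a-1 and mir-107. The single bases named here were not fixed in advance. These are computed structures, and their part in the scores was not tested.

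**Figure D5:**
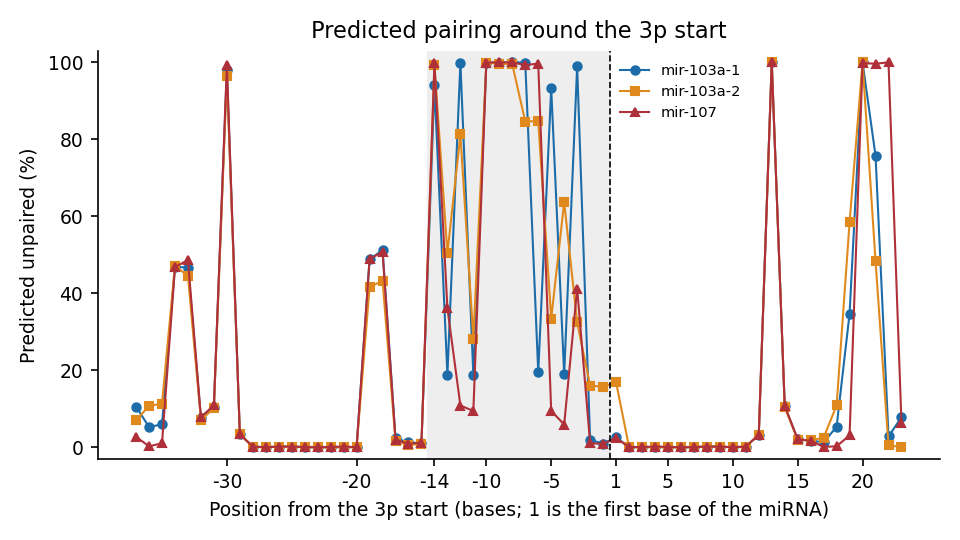
Predicted share of the structure ensemble in which a base is unpaired (y axis, percent) by position from the 3p start (x axis, bases), for the 3 hairpins; the dashed line marks the 3p start and the grey area the 14-base linker before it. Bases 4 and 5 before the start lie at 5.92% and 9.45% in mir-107, 19.0% and 93.2% in mir-103a-1, and 63.7% and 33.4% in mir-103a-2. At base 6 mir-107 lies above both copies.

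The wider group of miR-15, miR-16 and their relatives, to which miR-103 and miR-107 belong, is known to share the bases AGCAGC near the 5′ end of its mature miRNAs, which include regulators of the cell cycle. Of 9 further hairpins of this group on a fixed list, 3 were in the table. All are listed for their 3p strand, whereas their AGCAGC lies in the 5p strand, so the DICER cut at the 3p start does not set that seed. The mir-15b hairpin scored 0.00463 with DICER-WT and 0.00507 with DICER-delHelicase. That of mir-16-2 scored 0.199 and 0.0749, and its main DICER-WT end had offset -1. The mir-424 hairpin scored 0.0804 and 0.608. The list thus held 2 hairpins that were higher and 1 that was lower, with a median change of 0.000442 against 0.0261 over all hairpins. The ratio of 7.56 for mir-424 was near that of mir-103a, while that of mir-15b, 1.10, was below that of mir-107.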

How the data were processed

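Per the labels' protocols, small RNA libraries were made from 3 DICER-WT and 3 DICER-delHelicase rescue samples. The submitters' processing notes name cutadapt, Bowtie2, bedtools and GRCh38; their versions and settings are not known here. The authors deposited 1 variation score per hairpin and construct, whose formula and scale are not stated. The offset of the main 5′ end, in the authors' header tied to DICER-WT, was read as a whole-number score in bases. The Yes or No class was used as deposited. With no value per sample, nothing was tested between constructs.

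The members and lists were chosen with earlier results of these data known. Named hairpins were the 3 members, the listed hairpins of the miR-15 and miR-16 group, the 3 nearest in score to mir-103a and to mir-107, the 3 nearest in sequence, and the copies with the largest gap. Other hairpins and pairs, named for the neighbours in DICER-WT score, the mixed classes and the sequences 1 edit apart, were added after their values were seen. Alignments (Biopython 1.88) scored 1 for a match, -1 for a mismatch, -2 to open and -1 to extend a gap. Folds and pairing shares came from ViennaRNA 2.7.2 on the deposited sequences, with exact intervals from SciPy 1.17.1. Functions were tested on simulated inputs with known answers. The alternatives tried are given in the closing section.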

Additional observations from a re-analysis of the deposited data

How the results depend on the processing

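The share of other hairpins with a lower signed change kept its value within the exact interval in 14 of 21 alternatives. On a log2 ratio scale it was 94.5% in place of 78.8% for mir-103a-1 and 95.2% in place of 79.5% for mir-103a-2, with either 0.001 or 0.01 added to the scores. When only hairpins scoring above the median on average were compared it was 58.9% for either mir-103a copy and 27.4% in place of 43.2% for mir-107. None of the 3 hairpins scores above that median on average, so each was set against hairpins with higher mean scores than its own. The cause was not tested. Predicted loops and distances were unchanged in 15 of 18 alternative folds; without lonely pairs the loop became 12 bases in mir-103a-1 and 7 in mir-103a-2, and the stacked pairs in mir-103a-2 became 0. The numbers of nearest hairpins by DICER-WT score were chosen after the values were seen. With 5 or 20 in place of 10, 0 and 2 rose by more than mir-103a, and 3 and 9 by more than mir-107. No paired analysis was possible because each construct has a single value per hairpin, so no replicate could be left out either. Depth is unknown, which limits what scores near 0, such as those of mir-107, can show.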
